A study of Mus musculus with 24 samples.

Results

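The genes for 10 transcription factors of fibroblasts and other connective tissue cells, namely Runx1, Runx2, Sox9, Twist1, Twist2, Tcf21, Meox1, Scx, Prrx1 and Osr1, were followed through the left ventricle of mice with and without angiotensin II (ANG II). They were chosen by gene symbol, and all 10 were among the 14912 genes of the table, with a value in each of the 24 samples. All mice were wild type (WT), by the study's methods male C57BL/6J. The 12 samples of the group named hypertensive-LVH, after left ventricular hypertrophy (LVH), a thickening of the ventricular wall, came from mice that received ANG II, a peptide that raises blood pressure, at 1500 ng/kg/min for 7 days from a mini-pump under the skin. The 12 control samples came from mice that received saline by the same pumps for 7 days. The hearts of both groups were flushed with saline, and RNA of the whole left ventricle, with all its cell types, was sequenced. The study describes further samples of each group, which were not analysed here.

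Fibroblasts keep up the collagen scaffold of the heart, and under pressure load they divide and lay down matrix. Tcf21, Prrx1 and Osr1 are known from resident fibroblasts and from the embryonic tissues that give rise to them. Scx drives tendon development, Sox9 cartilage and Runx2 bone, while Runx1 is best known as a regulator of blood cells, and all of them have been linked to matrix production in scars. Twist1 and Twist2 are a pair of basic helix-loop-helix factors of the mesenchyme, and Meox1 is a homeobox factor of the somites that has been linked to fibroblast activation.

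The values were FPKM (fragments scaled to transcript length and library size), a level per length of transcript. They added up to 460710 to 515190 per sample in the hypertensive-LVH group and to 482320 to 567730 in the control group. By the pattern of tied values, the table fell into 4 sets of samples, which by their numbers ran 1 to 3, 4 to 6, 7 to 9 and 10 to 12 in each group, within which each gene had been shifted and rescaled before deposit. In the solution found here, the rescaling spared a group difference per gene that was shared by the sets. The deposited values were thus adjusted with the groups known, and the deposited difference of a set also carries that of the other sets. What the sets stand for is not given in the sources used here. For 87.4% of genes and for all 10 factors the differences between samples of a set before this adjustment could be recovered, in whole hundredths of an FPKM, and both versions were compared. The cardiomyocyte markers of the list used here added up to 23885 FPKM or more in every sample.

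Positions are from the GENCODE vM21 annotation of GRCm38, since the build behind the FPKM values is not given in the sources used here. Runx1 spans chr16:92601466-92826149 and Runx2 chr17:44495987-44814797, both on the minus strand. Sox9 lies at chr11:112782224-112787760 on the plus strand and Meox1 at chr11:101877510-101894374 on the minus strand. Twist1 lies at chr12:33957671-33959829 and Osr1 at chr12:9570116-9581500, both on the plus strand. Twist2 lies at chr1:91801461-91848028 on the plus strand and Prrx1 at chr1:163245119-163313710 on the minus strand. Tcf21 lies at chr10:22817281-22820174 on the minus strand. Scx lies at chr15:76457452-76459458 on the plus strand, inside an intron of Bop1, which runs the other way. Runx1 and Runx2 are shown first, because they are paralogs whose levels went up and down together across samples. A link between these sequences and the levels was not tested. The GENCODE spans of both genes begin further upstream than the RefSeq start sites used here, so part of each stretch below lies inside the annotated gene. The 250 bases upstream of a start site of each, from RefSeq on GRCm38.p6, read as follows on the strand of the gene, with capitals for the core RUNX motif TGTGGT or its reverse complement ACCACA.
Runx1, chr16:92826075-92826324: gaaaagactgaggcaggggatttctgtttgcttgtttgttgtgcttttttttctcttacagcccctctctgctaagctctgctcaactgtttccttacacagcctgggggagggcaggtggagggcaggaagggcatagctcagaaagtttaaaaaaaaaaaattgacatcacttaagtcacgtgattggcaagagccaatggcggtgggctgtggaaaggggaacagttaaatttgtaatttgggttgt
Runx2, chr17:44814628-44814877: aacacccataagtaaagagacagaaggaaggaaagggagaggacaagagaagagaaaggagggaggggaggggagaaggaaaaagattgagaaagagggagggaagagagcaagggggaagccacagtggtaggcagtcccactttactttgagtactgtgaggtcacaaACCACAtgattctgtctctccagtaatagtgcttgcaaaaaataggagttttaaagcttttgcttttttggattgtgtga
Just downstream of both RefSeq start sites the 2 genes shared a run of 22 bases, from base 24 counted from that site in Runx1 (chr16:92826030-92826051) and from base 19 in Runx2 (chr17:44814588-44814609), which holds the motif 2 times.
Runx1 and Runx2, shared run: aaacaACCACAgaACCACAagt
Among the 32851 windows of 300 bases in the RefSeq table (250 before and 50 after a start site), 16.8% held the 6-letter motif at least 1 time on either strand, and only the windows of Runx1 and Runx2 held the whole run. The table had windows for 6 of the 10 genes. In the 250 bases upstream Runx1 had no motif and Runx2 1, and the windows of the other Runx1 start site and of Twist1, Twist2, Tcf21 and Prrx1 had none. A match of letters is a description and says nothing of binding in these hearts.

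Twist1 and Twist2 are close copies in their coding sequence, which bears on how reads are shared between them. The 150 bases of coding sequence in which they were most alike, the length of 1 read of this study, are given with the bases that differ in capitals.
Twist1, chr12:33958324-33958473: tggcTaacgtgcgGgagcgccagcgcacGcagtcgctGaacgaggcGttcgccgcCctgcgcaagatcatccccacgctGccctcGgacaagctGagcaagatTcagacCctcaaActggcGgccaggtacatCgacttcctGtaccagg
Twist2, chr1:91801835-91801984: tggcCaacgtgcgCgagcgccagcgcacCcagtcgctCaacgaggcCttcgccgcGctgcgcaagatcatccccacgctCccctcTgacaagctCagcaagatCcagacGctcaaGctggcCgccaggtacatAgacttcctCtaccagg
Of these bases 135 (90.0%) were identical, and all 15 differences fell on the third position of a codon. The longest identical run between any transcripts of the pair was 23 bases, and between Runx1 and Runx2 26 bases, both shorter than a read of 150 bases, so no such read matches both copies of a pair in full.

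Of the 10 factors 6 rose in the hypertensive-LVH group and none fell. Meox1 rose most, to 2.22 times the control mean, followed by Scx (1.78 times), Twist1 (1.74), Twist2 (1.74), Runx2 (1.66) and Runx1 (1.48). The resident fibroblast factors Tcf21, Prrx1 and Osr1, and the cartilage factor Sox9, did not pass the test. The test was limma on log2(FPKM + 1), with p-values adjusted by Benjamini-Hochberg over 14026 genes, of which 20.9% were called higher and 12.6% lower at an adjusted p under 0.05. With the further criterion of a log2 difference over 0.5, met on the higher side by 4.52% of genes, 3 factors remained, Meox1, Scx and Twist1. With 0.1 added to the FPKM in place of 1, Runx2 met both criteria too (log2 difference 0.60, limma adjusted p = 0.00902). The median log2 difference of all genes tested was 0.05. Quantile normalization moved the split over all genes from 2928 higher and 1769 lower to 1928 and 2916, and under it 5 factors were called higher, all but Twist2. In whole tissue, more cells of a type and more RNA per cell cannot be told apart.

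**Figure D1:**
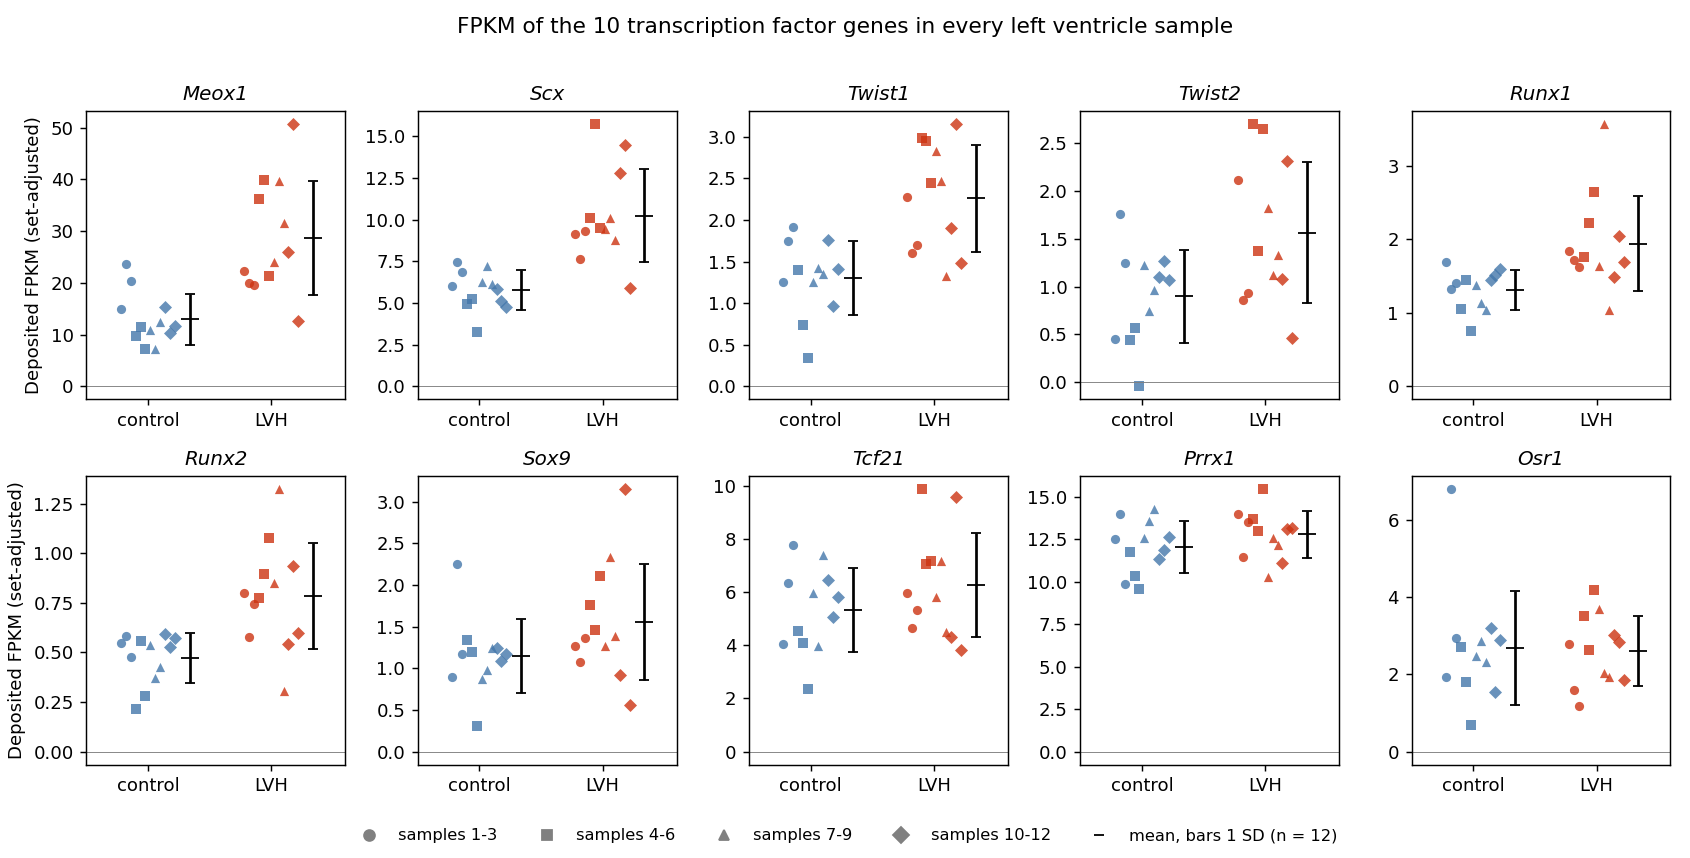
Deposited FPKM of the 10 genes in each sample, control in blue and hypertensive-LVH in red, with marker shapes for the 4 sets of samples and, at the right of each group, the mean with 1 SD (n = 12). For Scx, 11 of 12 hypertensive-LVH samples lay above the highest control sample, and for Osr1 none did.

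Meox1 had the highest level in the hypertensive-LVH group. It ranged from 12.6 FPKM over a median of 25.02 to 50.8 in that group, and from 7.13 over 11.6 to 23.7 in the control group. Its means were 28.6 ± 11.05 and 12.9 ± 4.95 FPKM (SD, n = 12 each). All 12 hypertensive-LVH samples lay above the control median, and 7 lay above the highest control sample, so the groups still overlapped. The difference of log2(FPKM + 1) was 1.07 (SE 0.20, adjusted p = 0.000245), and it stayed between 0.99 and 1.17 when any 1 sample was left out.

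Of the tendon, bone and cartilage factors, Scx separated the groups best. Its level ranged from 5.87 over 9.49 to 15.8 FPKM in the hypertensive-LVH group and from 3.26 over 5.94 to 7.48 in the control group (means 10.2 ± 2.80 and 5.77 ± 1.18, SD, n = 12 each). Only hypertensive-LVH sample 12, at the low end, fell within the control range. The log2 difference was 0.72 (SE 0.12, adjusted p = 0.000116). Bop1, the ribosome biogenesis gene around Scx, did not pass the test, with means of 14.3 and 13.98 FPKM and an adjusted p of 0.843. Scx and Bop1 share no exon bases in the annotation, and the correlation of their log2 values over the 24 samples, after the mean of each group in each set was removed, was 0.37.

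Runx1, which acts as a DNA-binding partner of Cbfb, ranged from 1.03 over 1.74 to 3.57 FPKM in the hypertensive-LVH group and from 0.748 over 1.39 to 1.69 in the control group. The highest value belonged to hypertensive-LVH sample 8, and 7 of the 12 samples lay above all controls. The means were 1.94 ± 0.647 and 1.31 ± 0.270 FPKM, a log2 difference of 0.33 (SE 0.10, adjusted p = 0.0112).

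Runx2, the master regulator of bone-forming cells, was the lowest of the 10 genes. It ranged from 0.307 over 0.788 to 1.32 FPKM in the hypertensive-LVH group and from 0.213 over 0.531 to 0.594 in the control group, with means of 0.786 ± 0.266 and 0.474 ± 0.125. The control samples were bounded tightly at the top, and 9 of 12 hypertensive-LVH samples lay above them. Its log2 difference of 0.27 (SE 0.071, adjusted p = 0.00577) understates the ratio of 1.66, since 1 was added to values under 1. With 0.1 added the differences were 0.60 for Runx2 and 0.50 for Runx1. The antisense genes Runx2os1 (519 shared exon bases) and, for Runx1, Gm26626 (106) run opposite to these genes, and whether strand was used in counting is not given in the sources used here.

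Sox9 ranged from 0.566 over 1.38 to 3.15 FPKM in the hypertensive-LVH group and from 0.302 over 1.17 to 2.25 in the control group. The groups overlapped over most of their range, and 2 hypertensive-LVH samples lay above all controls. The log2 difference of 0.24 (SE 0.13) had an adjusted p of 0.166.

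Twist1, a mesenchymal factor of the cranial and limb buds, ranged from 1.32 over 2.36 to 3.16 FPKM in the hypertensive-LVH group and from 0.343 over 1.38 to 1.91 in the control group. Its 7 highest samples were all hypertensive-LVH, and the 5 lowest all control. The means were 2.26 ± 0.644 and 1.30 ± 0.445 FPKM, and the log2 difference was 0.51 (SE 0.12, adjusted p = 0.00213). That difference sat at the 0.5 criterion and ranged from 0.44 to 0.55 with any 1 sample left out.

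Twist2 rose by the same ratio of means with more scatter. It ranged from 0.467 over 1.35 to 2.71 FPKM in the hypertensive-LVH group and from -0.0432 over 1.013 to 1.76 in the control group, the negative value being control sample 6 after the set adjustment. The means were 1.57 ± 0.741 and 0.901 ± 0.488 FPKM, the log2 difference 0.42 (SE 0.16) and the adjusted p 0.0421. This call was the least stable of the 6. It was lost, with adjusted p-values up to 0.0783, when any of 11 single samples was left out, namely hypertensive-LVH 1, 4, 5, 6, 7 and 11 and control 1, 4, 5, 6 and 8. The annotated antisense gene Gm29100 shares 1477 exon bases with Twist2, so reads of the pair cannot be told apart without strand.

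Tcf21, the marker factor of resident cardiac fibroblasts, ranged from 3.84 over 5.88 to 9.88 FPKM in the hypertensive-LVH group and from 2.35 over 5.46 to 7.76 in the control group. Only 7 of 12 hypertensive-LVH samples lay above the control median. The log2 difference was 0.20 (SE 0.15, adjusted p = 0.304).

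Prrx1, a homeobox factor of limb and connective tissue mesenchyme, was the steadiest of the genes. It ranged from 10.3 over 13.03 to 15.4 FPKM in the hypertensive-LVH group and from 9.60 over 12.2 to 14.3 in the control group. One hypertensive-LVH sample lay above all controls, and the log2 difference was 0.08 (SE 0.066, adjusted p = 0.337).

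Osr1, a zinc finger factor of intermediate mesoderm and connective tissue, ranged from 1.17 over 2.705 to 4.20 FPKM in the hypertensive-LVH group and from 0.697 over 2.59 to 6.80 in the control group. Its single highest value was control sample 2, and the group means were 2.61 ± 0.916 and 2.68 ± 1.48. The log2 difference was 0.02 (SE 0.17, adjusted p = 0.953), and it took the opposite sign under both other scalings and in 8 of the 24 fits that left out 1 sample.

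No gene of the 10 had all hypertensive-LVH samples above all control samples, a pattern met by 0.271% of the 14026 genes. Control sample 6 was the lowest of the 24 samples for 8 of the 10 genes, all but Runx2 and Meox1. Hypertensive-LVH sample 11 was the highest for 3, Sox9, Twist1 and Meox1. For what share of all genes these samples were the lowest or highest was not counted. Without control sample 6 the 6 calls became 5, with Twist2 lost, while 2476 of the 14026 genes were called higher, against 2928 with all samples.

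**Figure D2:**
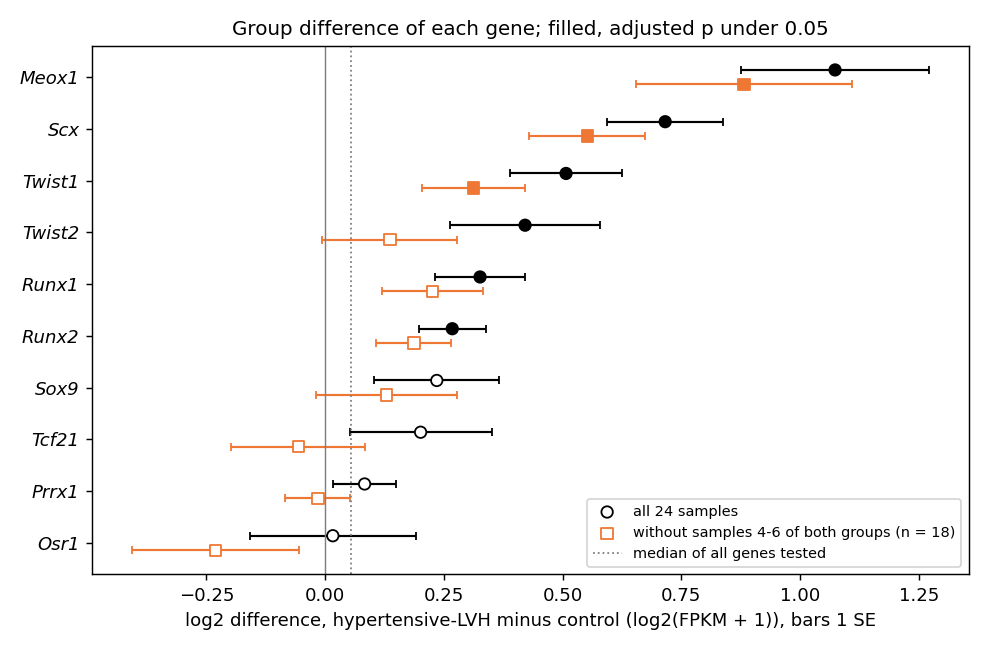
Difference of mean log2(FPKM + 1), hypertensive-LVH minus control, with 1 SE for each gene, over all 24 samples (black circles) and without samples 4 to 6 of both groups (orange squares); filled symbols had an adjusted p under 0.05. Meox1, Scx and Twist1 are filled in both, and the other 7 are open without samples 4 to 6. Of 14026 genes, 2928 were called higher over all samples and 1173 without samples 4 to 6.

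FPKM is a level per length, so the genes were ordered by their deposited values, which carry the set adjustment. In the control group Meox1 (12.9 FPKM) and Prrx1 (12.0) came first, Scx (5.77) and Tcf21 (5.33) next, then Osr1 (2.68), Runx1 (1.31), Twist1 (1.30), Sox9 (1.15), Twist2 (0.901) and Runx2 (0.474). The steps from Prrx1 to Scx and from Tcf21 to Osr1 were wider than the larger SD of the neighbours, and all other steps lay within it. In the hypertensive-LVH group Meox1 (28.6) stood apart from Prrx1 (12.8) by more than its SD, and so did Scx (10.2) from Tcf21 (6.27), Tcf21 from Osr1 (2.61) and Sox9 (1.56) from Runx2 (0.786). Prrx1 and Scx differed by less than their SD, as did each neighbouring pair from Osr1 down to Sox9.

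The size of the group difference varied between the sets of samples. In samples 4 to 6 the log2 difference was above 0 for all 10 genes, from 0.38 for Prrx1 to 1.65 for Meox1, in a set where 76.6% of all genes had a higher mean in hypertensive-LVH before the adjustment of the deposited values. In samples 1 to 3 it lay between -0.69 for Osr1 and 0.32 for Scx. Meox1 differed by 1.56 among numbers 7 to 9 and by 1.00 among 10 to 12, but by 0.09 among 1 to 3. Twist2 differed by 1.28 in samples 4 to 6, and by 0.11, 0.29 and 0.01 in the other sets. A test of the group difference between sets (limma interaction) called none of the 10 genes and 7.49% of all genes at an adjusted p under 0.05. At an unadjusted p under 0.05 it marked 7 of the 10 (all but Runx1, Runx2 and Sox9) and 25.0% of all genes, and the lowest adjusted p-values were 0.105 for Twist2 and 0.107 for Meox1.

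**Figure D3:**
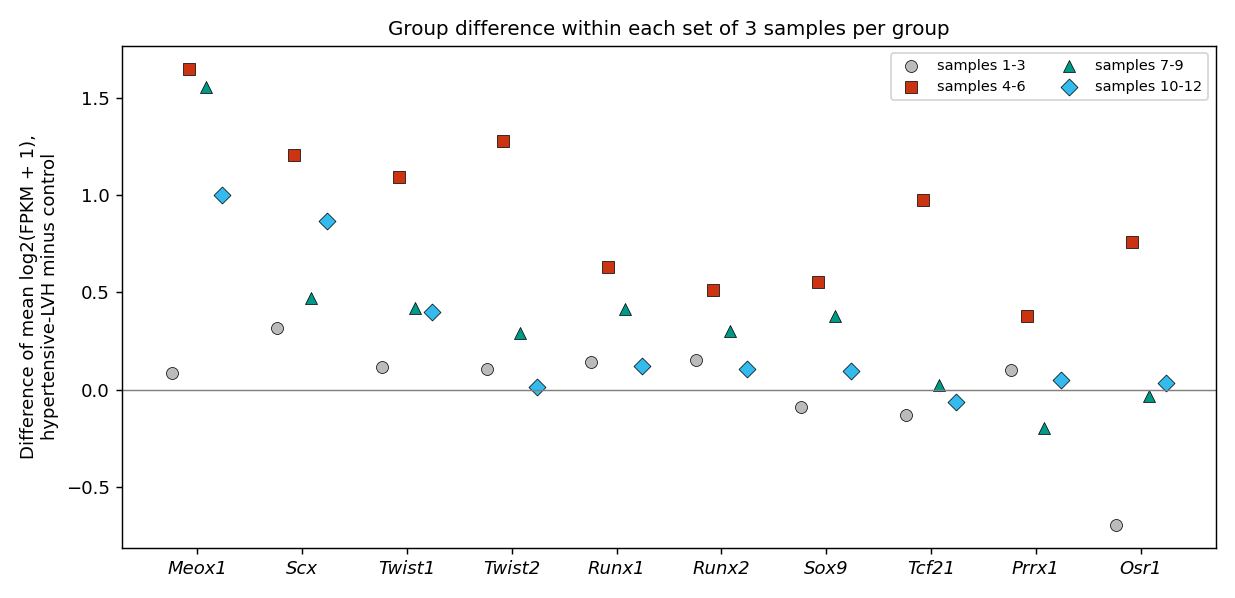
Difference of mean log2(FPKM + 1), hypertensive-LVH minus control, within each set of 3 samples per group, for each of the 10 genes. The red squares (samples 4 to 6) are the highest point of every gene, and Meox1 reaches 1.65 there against 0.09 in samples 1 to 3 (grey circles).

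The recovered values carry the differences within a set as they were before the adjustment. On them, Runx1 and Runx2 had the groups apart in the most sets. The size of the difference still varied. From samples 1 to 3 to samples 10 to 12 it was 0.067, 1.29, 1.17 and 0.463 FPKM for Runx1. For Scx it was 1.503, 7.28, 3.96 and 5.86 FPKM. In samples 4 to 6 the 3 hypertensive-LVH samples had 1.2, 1.55 and 1.87 FPKM of Runx1 above the lowest sample of the set, and the controls 0.23, 0.53 and 0.00. In samples 10 to 12 these were 0.31, 0.79 and 0.48 against 0.00, 0.06 and 0.13. In samples 1 to 3 they were 0.36, 0.22 and 0.12 against 0.41, 0.00 and 0.09. Thus the groups were apart in both of the former sets and overlapped in the latter. With hypertensive-LVH above, Runx1 and Runx2 were each apart in 3 of the 4 sets, Scx, Meox1, Twist1, Twist2 and Sox9 in 2, Tcf21 and Prrx1 in 1, and Osr1 in none. Prrx1 was apart in the opposite direction in samples 7 to 9.

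Set by set, none of the 10 genes had all hypertensive-LVH samples above all controls in samples 1 to 3, where 4.45% of all genes did. Samples 4 to 6 gave 9 such genes (41.7% of all genes), numbers 7 to 9 gave 7 (18.1%) and numbers 10 to 12 gave 2 (12.8%). The hypertensive-LVH mean exceeded the control mean in all 4 sets for Runx1, Runx2, Twist2 and Scx, as it was for 22.1% of all genes. On the recovered values the mean was higher in hypertensive-LVH for 5 of the 10 genes in samples 1 to 3, where it was for 42.2% of all genes. The counts were 10 (76.6% of all genes) in samples 4 to 6, 8 (53.6%) in 7 to 9 and 8 (60.2%) in 10 to 12. In samples 1 to 3 the recovered difference was -2.57 FPKM for Meox1, -1.22 for Tcf21 and -3.40 for Osr1, and 1.503 for Scx.

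An exact permutation test that exchanged labels only within the sets (160000 arrangements, two-sided, adjusted over 12571 genes, 17.6% of which were called higher) called 5 of the 10. Scx differed by 4.65 FPKM (adjusted p = 0.00237), Runx1 by 0.746 (0.00311), Runx2 by 0.343 (0.00354), Twist1 by 0.913 (0.0186) and Meox1 by 14.1 (0.0206), each adjusted p from this exact test. Twist2 differed by 0.839 FPKM (exact permutation test, adjusted p = 0.0789), and Sox9, Tcf21, Prrx1 and Osr1 had adjusted p-values from 0.373 to 0.788. Scx, Runx1 and Runx2 were also called by this test when any 1 of the sets was left out, and Twist2 was called without samples 1 to 3 (exact permutation test, adjusted p = 0.0366). Twist1 was not called without samples 4 to 6 (exact permutation test, adjusted p = 0.183), without 7 to 9 (0.0987) or without 10 to 12 (0.0579), and Meox1 not without samples 4 to 6 (0.163) or 7 to 9 (0.156). Over all 12571 genes the calls higher were 2213 with all sets, 706 without samples 4 to 6, 732 without 7 to 9 and 1085 without 10 to 12. They were 3029 without samples 1 to 3. On the deposited log2 values, leaving out samples 4 to 6 kept the limma calls of Meox1 (log2 difference 0.88, adjusted p = 0.0103), Scx (0.55, 0.00381) and Twist1 (0.31, 0.0471). It left Runx1 at 0.23 (adjusted p = 0.144), Runx2 at 0.19 (0.101) and Twist2 at 0.14 (0.530), and gave Tcf21, Prrx1 and Osr1 differences below 0. Over all genes this limma fit called 1173 of 14026 higher, against 2928 with all samples.

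Within groups and sets, the 10 genes fell into different patterns of variation. For this the mean of each group in each set was taken away from log2(FPKM + 1), and Pearson's r was taken over the 24 samples, which share their library between genes. These values are descriptions without a test. Of the 45 pairs 44 had an r above 0, with a median of 0.42. Runx1 and Runx2 were the closest pair (r = 0.88). Sox9 and Tcf21 (0.78), Tcf21 and Meox1 (0.77), Twist1 and Tcf21 (0.76) and Meox1 and Scx (0.75) came next. Twist1 and Twist2, the near copies, had an r of 0.57. Prrx1 and Scx had the lowest r (-0.07), and Runx1 had an r of 0.03 with Osr1 and of 0.07 with Twist2.

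**Figure D4:**
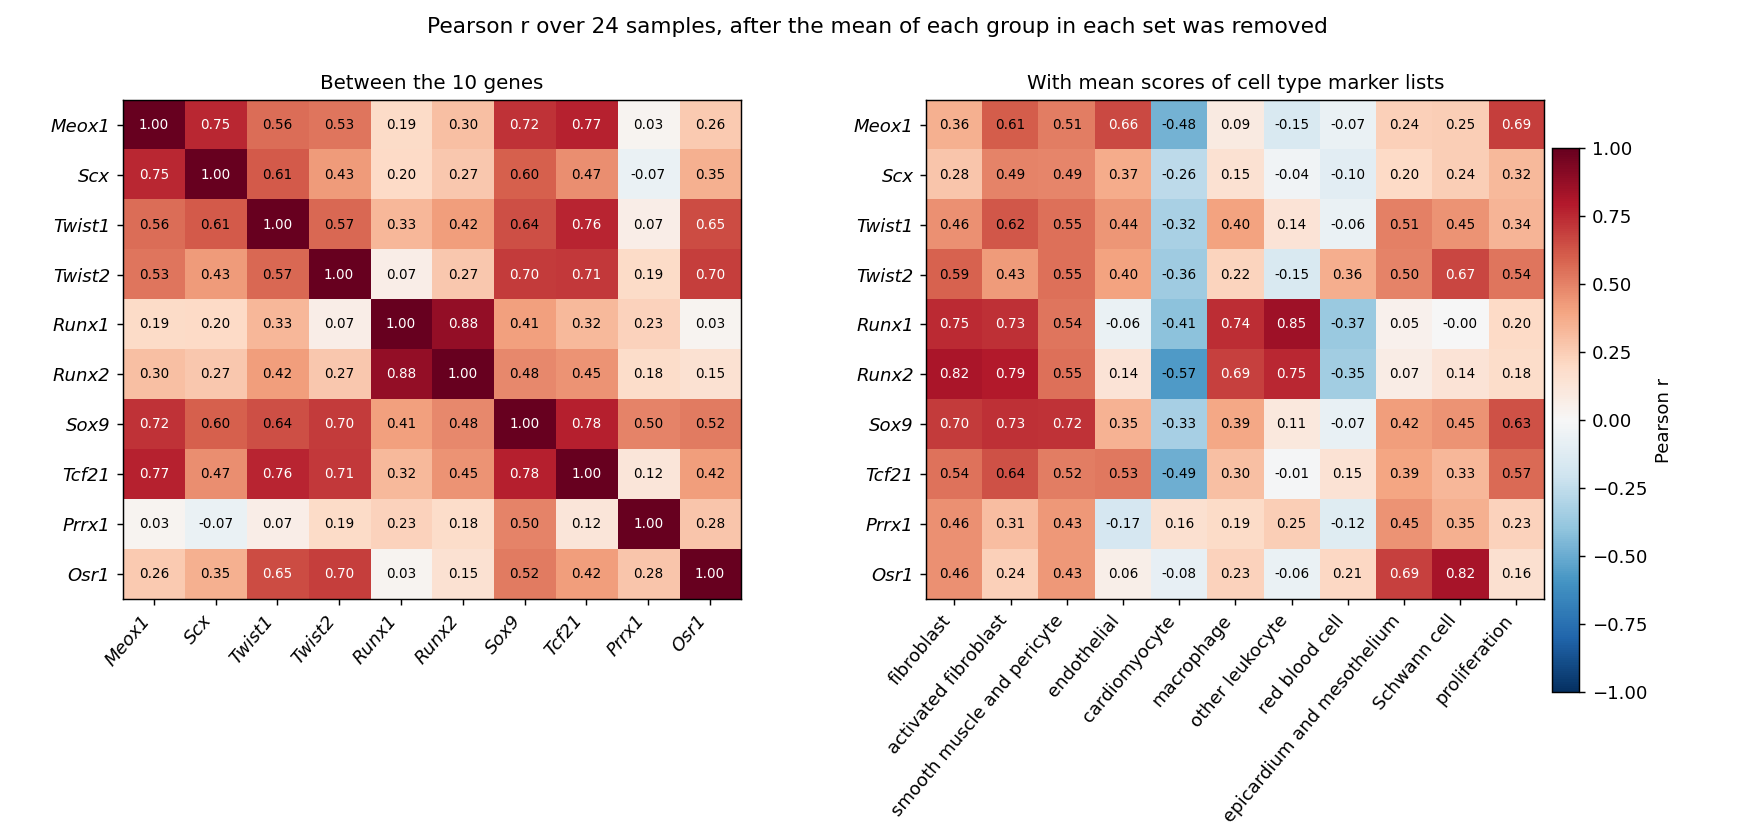
Pearson's r over the 24 samples after the mean of each group in each set was removed, between the 10 genes (left) and with the mean score of each cell type marker list (right), on a colour scale from -1 (blue) to 1 (red). Runx1 and Runx2 share the highest pair value (0.88) and the highest values with the leukocyte list (0.85 and 0.75).

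The marker lists set the factors apart in the same way. Runx1 followed the other leukocyte markers most closely (r = 0.85), then the fibroblast (0.75), macrophage (0.74) and activated fibroblast (0.73) lists. Runx2 followed the fibroblast (0.82) and activated fibroblast (0.79) lists and the leukocytes (0.75). Meox1 had its highest r with the proliferation (0.69), endothelial (0.66) and activated fibroblast (0.61) lists, and an r of -0.15 with the leukocytes. Scx and Twist1 had theirs with the activated fibroblast list (0.49 and 0.62), Twist2 and Osr1 with the Schwann cell list (0.67 and 0.82). For Scx the smooth muscle and pericyte list was as close (0.49). Sox9 had 0.73 with activated fibroblasts and 0.72 with smooth muscle and pericytes, and Prrx1 had no r above 0.46.

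For the 6 genes that rose, the 3 genes of at least 1 FPKM with the most similar variation were named. For Runx1 they were Ptprc, the leukocyte surface phosphatase CD45 (r = 0.89), Cd53, a tetraspanin of leukocytes (0.89), and Serpinb1a, an inhibitor of neutrophil proteases (0.88). For Runx2 they were Tnfrsf1b, a receptor for tumour necrosis factor (0.91), Col5a2, a chain of the fibril collagen type V (0.90), and Fxyd5 (0.90). For Meox1 they were Pafah2 (0.89), the mitotic kinase gene Aurka (0.89) and Aplnr, the apelin receptor (0.88). For Scx they were Elp3 (0.84), Extl3 (0.82) and Cst6 (0.82), for Twist1 Zfp324 (0.90), Slc35c1 (0.88) and Rnf215 (0.85), and for Twist2 Dmtn (0.88), Gpr182 (0.88) and Sost, the Wnt inhibitor sclerostin (0.87). By limma, Cd53 (log2 difference 0.66, adjusted p = 0.00158), Tnfrsf1b (0.48, 0.00604), Col5a2 (0.78, 0.00878), Fxyd5 (1.29, 3.90e-05) and Aurka (0.78, 4.96e-05) also rose, and the other 13 did not pass the test. Ptprc itself had a log2 difference of 0.16 (adjusted p = 0.259).

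Cell type markers that moved with the groups are given beside these results. Of the 10 activated fibroblast markers 9 rose, with a median log2 difference of 1.54, and their sum was 197 to 612 FPKM in the hypertensive-LVH group and 75.2 to 269 in the control group. Of the 11 fibroblast markers 6 rose and 1 fell (median 0.90), with sums of 1331 to 3658 and 692 to 1807 FPKM. Pdgfra, their receptor marker, had a log2 difference of 0.20 (adjusted p = 0.0720). Cthrc1 of the activated list rose from 3.02 to 12.9 FPKM (log2 difference 2.05, adjusted p = 0.000562), and Fn1, fibronectin, from 30.9 to 79.2 (2.08, 0.0233). Col1a1, a collagen chain, rose from 86.7 to 292 (2.77, 0.0180) and Col3a1 from 175 to 423 (2.63, 0.0418), while Gsn, gelsolin, fell from 639 to 458 (-0.49, 0.000302). In Col1a1, Col3a1, Fn1 and Cthrc1 the deposited values of controls 4, 5 and 6 were below 0 and entered the log2 difference as 0, and with those values at 0 the ratio of the group means was 2.94, 2.28, 2.40 and 4.15. Without samples 4 to 6 of both groups the log2 differences were 0.77 for Col1a1 (limma adjusted p = 0.0172), 0.39 for Col3a1 (0.0871), 0.46 for Fn1 (0.0891) and 1.36 for Cthrc1 (0.0234).

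All 6 macrophage markers rose (median 0.51, sums 130 to 349 and 92.7 to 183 FPKM), among them Cd68 (0.92, adjusted p = 0.00290) and C1qa (0.65, 0.00525). Of the 7 other leukocyte markers 1 rose, Ccr2 of monocytes (0.81, 0.00734), and 1 fell, Cd79a of B cells (-0.25, 0.0181), with sums of 9.63 to 40.4 and 8.11 to 41.7 FPKM. All 4 proliferation markers rose (median 0.59), led by Ccnb1 (0.89, 3.64e-05) and Cdk1 (0.68, 0.000123). All 5 red blood cell genes rose (median 1.76, sums 779 to 6443 and 92.2 to 2949 FPKM), led by the globin genes Hba-a2 (3.39, 0.0113) and Hba-a1 (2.03, 0.000957). Hba-a2 also had 3 control values below 0, and the ratio of its group means with those at 0 was 3.53. Of the 7 cardiomyocyte markers 3 fell and none rose (median -0.23, sums 23885 to 32419 and 30713 to 37059 FPKM), with Tnni3 (-0.63, 8.06e-06) and Pln (-0.32, 0.00533) lowest.

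Endothelial markers had 1 of 6 higher, Pecam1 (0.37, adjusted p = 0.000777), and 1 lower, Kdr (-0.23, 0.0309), with sums of 325 to 506 and 328 to 418 FPKM. Smooth muscle and pericyte markers had 2 of 7 higher, Tagln (1.32, 0.0459) and Cnn1 (1.02, 0.0210; 0.29 and 0.39 without samples 4 to 6, limma adjusted p = 0.538 and 0.323), and 2 lower, Kcnj8 (-0.58, 4.99e-05) and Abcc9 (-0.41, 0.00314), with sums of 318 to 481 and 251 to 430 FPKM. Tagln had 1 control value below 0 and Cnn1 had 2, and with those at 0 the ratios of group means were 2.14 and 2.23. None of the 6 epicardial and mesothelial (sums 4.16 to 29.7 and 5.66 to 61.5 FPKM) and 4 Schwann cell markers (3.40 to 6.93 and 2.58 to 6.21) passed the test. No marker of any list had a mean under 0.1 FPKM. The part of these shifts in the levels of the 10 factors was not tested.

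Of 19 tested partners and inhibitors of the 10 factors 5 rose and 1 fell, with a median log2 difference of 0.09. Id2, an inhibitor that binds basic helix-loop-helix proteins, rose from 8.51 to 12.4 FPKM (0.50, adjusted p = 0.0153), and Runx3, the third RUNX gene, from 1.21 to 2.10 (0.47, 0.00656). Sox5, a partner of Sox9 in cartilage, fell from 0.959 to 0.750 (-0.16, 0.0480). Cbfb, the common partner of the RUNX factors, had means of 13.6 and 12.0 FPKM and an adjusted p of 0.0735.

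Cartilage, bone and tendon genes, many of them known targets of Sox9, Runx2 or Scx, had 7 of 16 higher and none lower (median 0.33), led by Col1a1 and by Col1a2, which rose from 90.7 to 228 FPKM (2.49, adjusted p = 0.0296). The lists overlap, as Col1a1 and Col1a2 are also fibroblast markers above, and Comp and Thbs4 activated fibroblast markers. Col1a2 too had 3 control values below 0 that entered the log2 difference as 0, and the ratio of its group means with those at 0 was 2.43. The others that rose were Spp1, osteopontin, from 3.21 to 12.8 FPKM, Thbs4, a thrombospondin, from 13.2 to 34.1, Acan, the aggrecan of cartilage, from 0.110 to 0.4997, and the collagen chains Col9a2, from 0.465 to 1.03, and Col11a2, from 0.729 to 1.07. Without samples 4 to 6 of both groups only Col1a1 and Acan (log2 difference 0.19, limma adjusted p = 0.0463) of these 7 kept the call, with Col1a2 at 0.51 (0.0510), Spp1 at 1.19 (0.190) and Thbs4 at 0.21 (0.377). Col2a1, the collagen of cartilage, had means of 0.203 and 0.0841 FPKM (adjusted p = 0.144), and Tnmd, a marker of mature tendon, of 0.244 and 0.126 (0.173). The 4 listed genes with a mean under 0.1 FPKM, Col9a1, Hapln1, Dmp1 and Phex, were not tested, and 7 further listed genes were not analysed here.

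Other transcription factors of mesenchyme had 7 of 32 higher and none lower (median 0.10), led by Snai1, a zinc finger repressor, from 3.08 to 6.53 FPKM (0.86, adjusted p = 0.00156), and Creb3l1, a factor of collagen secretion, from 7.38 to 11.7 (0.57, 0.0204). Factors of TGF-beta, Hippo and MRTF signalling had 8 of 20 higher and 1 lower (median 0.13). Tgif1, a SMAD corepressor, rose from 4.15 to 6.62 FPKM (0.55, 0.00264) and Tead2, a DNA-binding partner of YAP, from 5.15 to 7.07 (0.40, 0.00596), while Smad3 fell from 9.92 to 8.65 (-0.18, 0.0166). These shares stand beside the 20.9% of all genes called higher and the 12.6% called lower.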

How the data were processed

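The 24 left ventricle samples, 12 per group, were poly(A) RNA libraries read as pairs of 150 bases, and the study's methods call them biological replicates. The authors deposited FPKM values, per the labels from HISAT, Bowtie2 and RSEM, with no versions, genome build or strandedness in the sources used here. Because the deposited values had been adjusted within 4 sets of samples and 2741 of them (0.766%) were negative, they were treated as a score based on FPKM. Depth is thus unknown, and no counting interval was given. With values below 0 raised to 0, log2(FPKM + 1) was tested with limma 3.58.1 (R 4.3.3, intensity trend) for genes with a mean of at least 0.1 FPKM, by the study's criteria (adjusted p under 0.05, absolute log2 difference over 0.5). Differences within sets were recovered by solving each gene for a shift and scale per set, and a group difference shared by the sets, that return whole hundredths (tolerance 0.001 of a step). These differences were tested by exact permutation within sets. Both tests were tried on simulated data. Named were all 10 factors, the 2 largest increases and decreases past the test in each list, and the 3 most similar genes of each factor that rose. Bop1, Pdgfra, Cbfb, Col2a1, Tnmd, Acan, Spp1, Thbs4, Col9a2, Col11a2 and the antisense genes were named after their values or positions were seen. The 10 factors and all lists were chosen with earlier results of these data known.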

Additional observations from a re-analysis of the deposited data

How the results depend on the processing

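Depth is unknown for these values, so the part of counting noise in the spread of low genes such as Runx2 could not be judged. Among the alternative values of the 10 factors, 336 kept their direction and side of the threshold, 20 lost the call and 13 changed sign. Meox1, Scx and Twist1 were called in all 13 settings that changed the method or left out a set, with log2 differences of 0.88 to 1.402, 0.55 to 0.85 and 0.31 to 0.80, and Runx1 and Runx2 in all but 1. The count of factors called higher (6) was 3 without samples 4 to 6 of both groups and 5 or 6 in all other settings that joined several sets. Limma fits within 1 set alone were not in these counts. In samples 4 to 6 alone all but Sox9 and Osr1 were called higher, beside 3099 of 14026 genes. Tcf21 (limma adjusted p = 0.0106) and Prrx1 (0.0422) were among them. In samples 7 to 9 alone only Meox1 was called, beside 304 genes. In samples 1 to 3 and 10 to 12 alone no factor was, beside 0 and 10 genes higher. Over the 14026 genes, limma called 2928 higher in the main fit, 1173 without samples 4 to 6 and 1586 with the replicate block. Leaving out any 1 sample gave 5 or 6 factors called higher, and 2 or 3 meeting both criteria. Twist1 dropped out of the latter without hypertensive-LVH 4, 5, 6, 7, 8 or 11 or control 5, 6 or 11. In the settings that changed the method or left out a set, 2 to 4 factors met both criteria. The share of all genes that met both was counted only in the main fit. No factor was called lower in any setting. The 5 factors of the exact test within sets were 3 without samples 4 to 6, 3 without samples 7 to 9 and 3 with the replicate block, a sign-flip test of same-numbered pairs, each time without Twist1 and Meox1. They were 4 without samples 10 to 12, where Twist1 was lost, and 6 without samples 1 to 3, where Twist2 was gained. Of all 12571 genes, this test called 2213 higher with all sets and 1210 with the replicate block. The totals were 706 without samples 4 to 6, 732 without 7 to 9, 1085 without 10 to 12 and 3029 without 1 to 3. The cause of these changes was not tested. Twist2 lost its call under log2(FPKM + 0.1) (adjusted p = 0.0682), quantile normalization (0.0638), set of samples as a term (0.0631), the Wilcoxon test (0.0797) and without samples 7 to 9 (0.0908). Without samples 4 to 6 the differences of Tcf21 (-0.057), Prrx1 (-0.015) and Osr1 (-0.23) changed sign. Osr1 also changed sign under quantile normalization (-0.10), median-ratio scaling (-0.0086) and in 8 of 24 fits without 1 sample (range -0.077 to 0.12). Deviations of same-numbered samples from their group means had r from -0.56 to -0.0011 over 12 pairs, none over 0.1. The set adjustment was shared by both groups of a set, so these r cannot show whether the numbers mark pairs. After the mean of each group in each set was removed, r ran from -0.42 (number 2) to 0.27 (number 3). The replicate block in limma gave 5 factors, with Twist2 at an adjusted p of 0.125. Runx2 had no value at a mean of at least 1 FPKM. All alternatives were run.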
